A study of Mus musculus with 20 samples.

Results

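The nucleosome remodelling and deacetylase complex, NuRD, was examined here through the transcripts of 10 genes that encode its subunits: Mbd3, Mbd2, Chd4, Hdac1, Hdac2, Mta1, Mta2, Mta3, Gatad2a and Gatad2b. They were taken by gene symbol from a list of the subunits, and all 10 were found among the 23284 genes of the RIP-Seq tables. NuRD joins an ATP-dependent chromatin remodelling motor to histone deacetylases and is recruited to regulatory DNA in many cell types. Mbd3 and Mbd2 are alternative methyl-CpG-binding domain subunits that define separate forms of the complex, Chd4 is the remodelling motor, Hdac1 and Hdac2 are the deacetylases, the Mta proteins are scaffolds, and Gatad2a and Gatad2b connect the MBD subunit with Chd4. In embryonic stem cells (ESCs), Mbd3-containing NuRD is known for its role in the exit from self-renewal. The values below describe RNA recovered with Tet proteins and say nothing of NuRD proteins.

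The 20 libraries came from knock-in (KI) lines of mouse ESCs. In these lines, tags (Flag, HA and Twin-Strep together) had been inserted by CRISPR at the C-terminus of an endogenous Tet protein. The Tet proteins are dioxygenases that oxidise 5-methylcytosine. The Tet1-KI line contributed 2 replicates and the Tet2-KI line 4. The Tet2dRBD-KI line, in which the tagged Tet2 lacks an RNA-binding domain, contributed 4. In every replicate, RNA recovered with an anti-Flag antibody (IP) was sequenced beside input RNA, with cells grown on gelatin in serum and LIF. The knock-in lines were derived from picked clones, so that a difference between lines cannot be told apart from a difference between clones. The IP was made from cytoplasmic extract and the input was total RNA according to the study's methods, and the part that this has in a difference between IP and input was not tested. Control reactions with mouse IgG are described in the methods and were not analysed here, so that RNA recovered without Tet cannot be told apart from RNA recovered with it.

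Library totals lay between 21078995 and 37576638 expected counts (median 25517290), and the member counts ranged from 85 (Gatad2b) to 53821 (Chd4) per library. The libraries of Tet2 and Tet2dRBD formed 3 sets: replicate 1 of both lines, replicate 2 of both lines, and replicates 3 and 4 together with all Tet1 libraries. TPM, used below, is a level scaled for transcript length and library total. Over the 11784 genes whose input averaged 1 TPM or more, log2 TPM of Tet2 IP replicates 3 and 4 correlated at 0.996. Tet2 IP replicate 2 correlated with the other Tet2 IP replicates at 0.902 to 0.913, so that it stood apart from replicates 3 and 4, and so did replicate 1, at 0.890 to 0.902 with the others. Each of the 8 ESC markers was present in all libraries. Pou5f1, the central pluripotency factor, lay between 2000 and 3214 TPM. Zfp42 (15.3 to 109 TPM) and Klf4 (17.4 to 69.4) were the lowest of the ESC markers. Summed over 4 endoderm markers, TPM in input ranged from 5.14 to 72.3 in Tet2, from 32.0 to 93.9 in Tet2dRBD and from 21.0 to 21.2 in Tet1. Over all libraries 3 mesoderm markers summed to at most 1.32 TPM. The 3 neuroectoderm markers summed to 7.08 to 31.6 TPM, nearly all of it Sox1 (6.84 to 31.5), with Neurog2 at 0 in 16 of the 20 libraries. The 3 trophoblast markers summed to 1.05 to 42.9 TPM, with the epithelial keratin Krt7 at up to 42.7 and Elf5 at 0 in 10. The 4 fibroblast markers summed to 10.6 to 62.8 TPM in input, with Thy1 at 8.43 to 35.8, Col1a1 at 1.2 to 17.8 and Col1a2 at 0.78 to 9.24 over all libraries, and Postn at 0.32 at most. Of the 8 ESC markers, Nanog passed the test of IP against input described below as lower in all lines, and Sox2, Tdgf1 and Dppa5a passed as lower in Tet2 and in Tet2dRBD. Of the 4 endoderm markers, Gata4 and Gata6 passed as lower in Tet2 and in Tet2dRBD. The part of these differences in the results was not tested.

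The study describes UC-rich motifs in RNA that carries 5-hydroxymethylcytosine, and the longest uninterrupted run of C and T in each coding sequence was therefore read from the mouse genome (mm9, with the gencode vM1 annotation). Over 22594 genes the longest run had a median of 10 bases. The runs of Mbd3, Chd4, Hdac1, Hdac2 and Mta2 are printed in capitals with 6 flanking bases on each side in lower case. They are given as DNA on the coding strand, each from within 1 exon.
Mbd3: ctatgaTTCTTCCaaccag
Chd4: aagtcgCCCCTCCCCCTCCCCCTgtggag
Hdac1: actgtgTCCTTTCataaat
Hdac2: ggaataCTTTCCTggaaca
Mta2: cgagagCTTTTTCTTTCTCggcagt

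Chd4 held the longest run of the 10 genes, 17 bases on chromosome 6 from 125051653 to 125051669 (plus strand), and 4.3% of genes had a run at least as long. The run of Mta2 measured 13 bases and lies on chromosome 19 from 9020317 to 9020329 (plus strand), with 22.7% of genes at or above it. Mbd3, Hdac1 and Hdac2 held runs of only 7 bases, and 95.1% of genes had one at least as long. The Mbd3 run lies on chromosome 10 from 79858193 to 79858199 (minus strand), that of Hdac1 on chromosome 4 from 129199648 to 129199654 (minus strand) and that of Hdac2 on chromosome 10 from 36711680 to 36711686 (plus strand). In the other subunits the longest run was 10 bases in Gatad2b, 11 in Mta1, Gatad2a and Mbd2, and 12 in Mta3. These shares were not matched for the length of the coding sequence, which was 5769 bases in Chd4, 2007 in Mta2 and 858 in Mbd3. By composition Chd4 was not rich in C and T, which made up 43.6% of its coding sequence. All 10 subunits lay below the median gene (48.3%), from 41.5% in Mbd3 to 47.9% in Mta1. The runs describe the coding sequence alone, whereas the study places the RNA mark and Tet binding mostly in introns. One gene was not uniquely readable: 72.4% of the 50-base windows of Hdac1 transcripts also occur in Gm10093, a gene that the tables do not list, so the level of Hdac1 is uncertain.

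The first question was how strongly each subunit was expressed in the cells. Mbd3 was the most abundant of the 10 in input, with a median of 190 TPM over the 10 input libraries and a range of 156 to 258. Hdac1 followed at a median of 136 TPM (98.2 to 197). Below it lay Mta3 (80.0), Mta2 (75.6), Gatad2a (74.4), Mta1 (66.0) and Chd4 (60.9), whose ranges overlapped one another, and then Hdac2 at 44.5 TPM (13.5 to 69.4). Mbd2 and Gatad2b were scarce, at medians of 5.32 TPM (2.07 to 8.87) and 5.12 TPM (2.95 to 7.62). The ranges of these scarce subunits lay wholly below those of the other 8, their own paralogs Mbd3 and Gatad2a included. In these bulk samples, fewer cells of a type and less RNA per cell cannot be told apart.

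**Figure D1:**
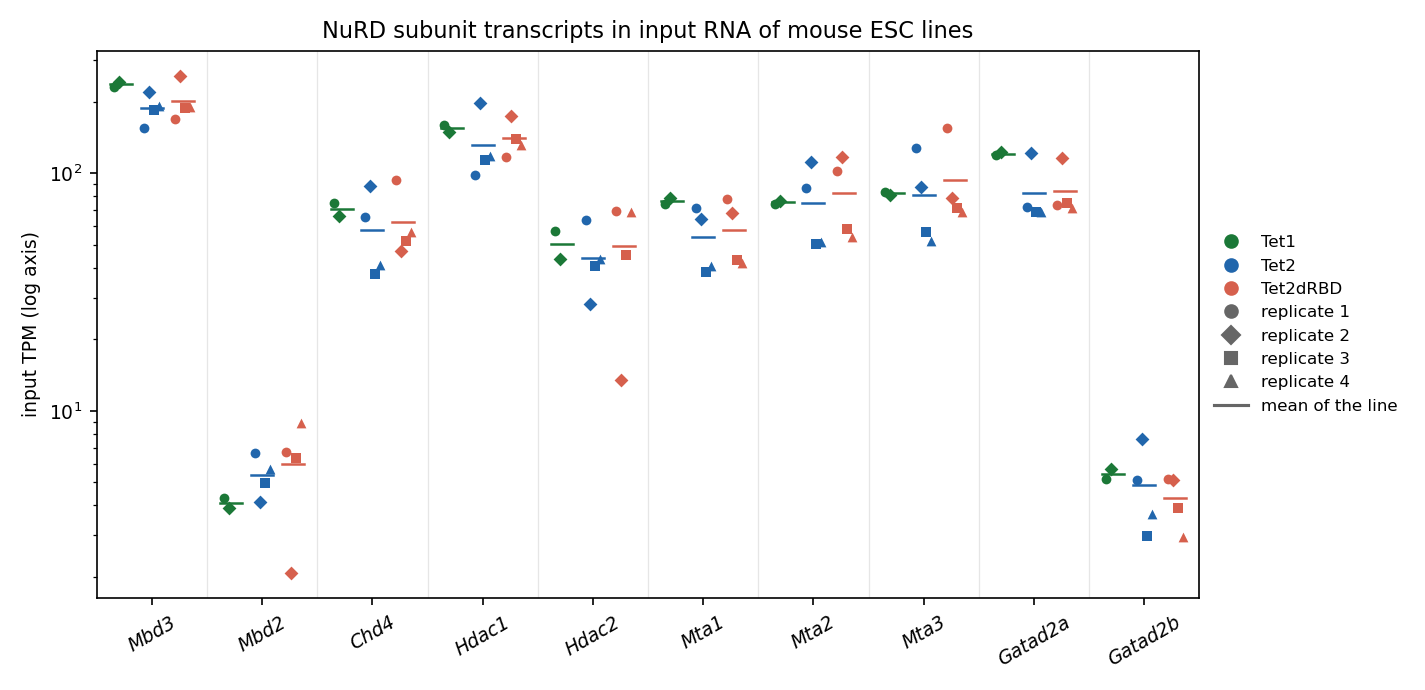
Input TPM (log axis) of the 10 NuRD subunits in each replicate, coloured by line and shaped by replicate number, with a line at the mean of each line. Mbd3 lies between 156 and 258 TPM, Mbd2 and Gatad2b lie below 9 TPM, and replicate 2 of Tet2dRBD is the lowest Hdac2 value, at 13.5 TPM.

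Input levels varied between the replicates of a line. Hdac2, whose input was 13.5 TPM in Tet2dRBD replicate 2 and 69.4 TPM in replicate 1, varied 5.15-fold over the 10 inputs, and Mbd2 varied 4.29-fold. Mbd3 varied least, 1.66-fold. The input of Tet2 was compared with that of Tet2dRBD by edgeR's quasi-likelihood test on the 8 inputs, in which 0% of 13178 genes passed an adjusted p of 0.05 (248 genes had an unadjusted p under 0.05). None of the 10 subunits passed that test. With the replicate number as a block, 5 genes passed and again none of the subunits, and DESeq2 called 9 genes and no subunit. The fitted difference of Mbd3 was -0.10 on the log2 scale (95% interval -0.57 to 0.37), and that of Chd4 was -0.12 (-0.87 to 0.63).

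Whether a subunit's RNA was recovered with a Tet protein was read from log2((IP TPM + 1)/(input TPM + 1)) of each replicate. The pseudocount of 1 understates the ratio of scarce transcripts such as Mbd2 and Gatad2b. This ratio was not centred on 0: its median over the 11784 genes averaging at least 1 TPM in input lay between 0.01 and 0.38, depending on the replicate. In Tet1, 7 of the 10 subunits were above input in both replicates, against 50.5% of these genes, and in Tet2 8 were above input in all 4 replicates, against 47%. In Tet2dRBD 6 were above input in all 4 replicates, against 31%. Counted instead from the median gene of each replicate, 5 subunits in Tet1 (background 42.1%), 6 in Tet2 (27.9%) and 5 in Tet2dRBD (18.7%) lay above it in every replicate. Mbd3, Mbd2, Chd4 and Hdac2 met both forms of the rule in all lines. The share of the 11784 genes that did so in all lines together was not counted, so this is a description only. Mbd2 and Hdac2 reached 1.5 times their input level in every replicate of Tet1 (8.55% of these genes did) and of Tet2 (6.49%), and none of the subunits did so in Tet2dRBD (1.37%).

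**Figure D2:**
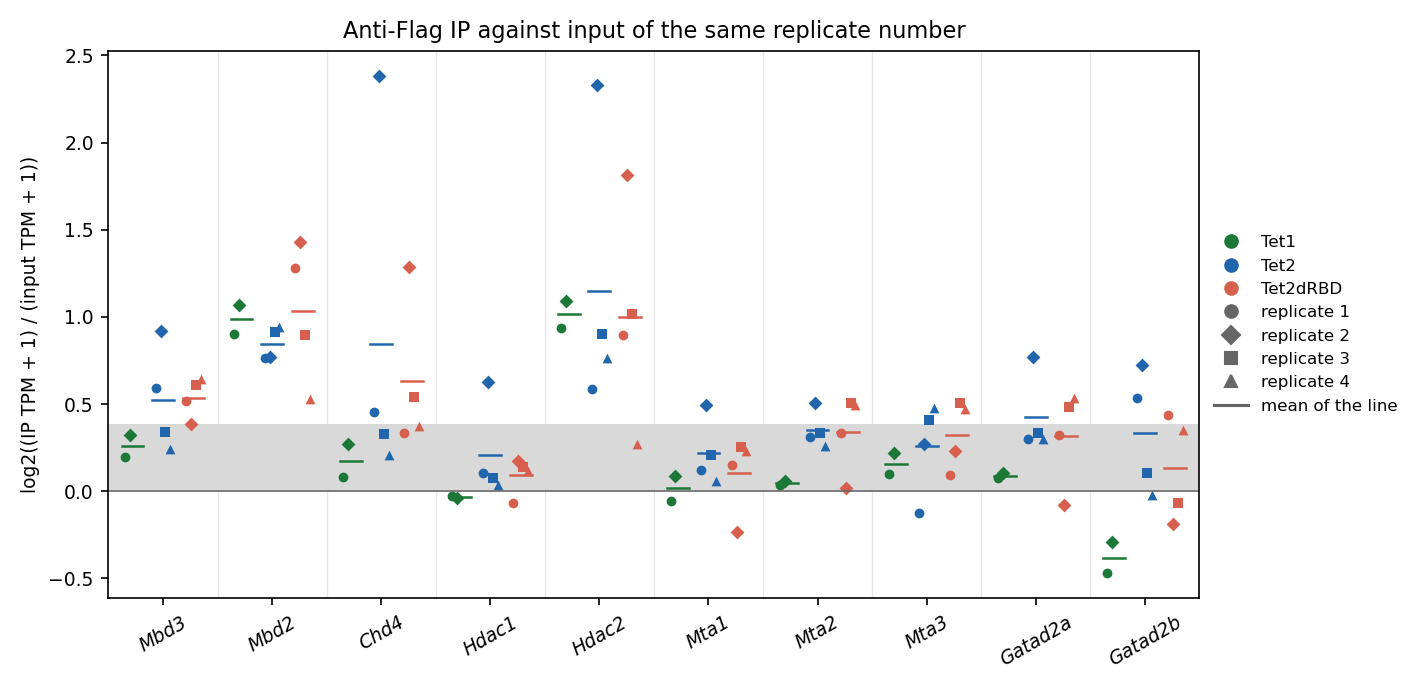
log2 ratio of IP TPM + 1 to input TPM + 1 for each replicate of the 10 subunits, coloured by line and shaped by replicate number, with a line at the mean of each line. The grey band is the range over replicates of the median ratio of genes averaging at least 1 TPM in input (0.01 to 0.38). Mbd2 and Hdac2 lie above 0 in all 10 replicates, and Chd4 and Hdac2 of Tet2 replicate 2 exceed 2.3.

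The test of IP against input was edgeR's quasi-likelihood test on expected counts, with each IP and its input as a block, TMM normalization and Benjamini-Hochberg adjustment over 13710 genes. In Tet1, 2.72% of genes passed as higher in IP and 3.18% as lower, and none of the 10 subunits passed (2 had an unadjusted p under 0.05, and DESeq2 called 1, Mbd2, with 6.13% of genes higher). In Tet2, 14.6% of genes passed as higher in IP and 18.5% as lower, and among the subunits Mbd2 and Hdac2 passed as higher. In Tet2dRBD, where 7.4% of genes passed as higher and 12.1% as lower, Mbd2 passed as higher. None of the subunits passed as lower in any line. The median fitted log2 ratio of the 10 subunits was -0.02 in Tet1, 0.10 in Tet2 and 0.06 in Tet2dRBD, against -0.04, 0.00 and -0.01 for all genes tested. On log2(TPM + 1), without TMM, limma called 6 subunits in Tet2 (Mbd3, Mbd2, Chd4, Hdac2, Mta2 and Gatad2a, all higher), where 35% of genes passed as higher. It called 4 in Tet2dRBD (Mbd3, Mbd2, Hdac2 and Mta2), where 23.5% did, and 1 in Tet1, where 3.59% did. On that scale the median of all genes shifted from 0.00 to 0.23 in Tet2 and from -0.01 to 0.19 in Tet2dRBD. The share of called genes that were higher moved with it, from 44.2% to 81.2% in Tet2, from 37.9% to 83.7% in Tet2dRBD and from 46.1% to 77.4% in Tet1.

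Mbd2, the scarce methyl-CpG-binding subunit, was recovered above input in every replicate. In Tet1 its TPM was 4.29 and 3.88 in input and 8.89 and 9.24 in IP of replicates 1 and 2. In Tet2 input it was 6.66, 4.12, 4.95 and 5.68 in replicates 1 to 4, and in Tet2 IP it was 12.01, 7.74, 10.2 and 11.8. In Tet2dRBD input it was 6.74, 2.07, 6.30 and 8.87, and in IP it was 17.8, 7.26, 12.6 and 13.2. The IP and input values of Tet1 and of Tet2 did not overlap, and those of Tet2dRBD did, because the replicate 2 IP lay below the replicate 4 input. Rounded counts of Mbd2 ranged from 92 to 563 per library, which makes it one of the less precisely counted members.

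The mean log2(IP/input) of Mbd2 was 0.99 ± 0.12 in Tet1 (SD, n = 2), 0.85 ± 0.09 in Tet2 (SD, n = 4) and 1.03 ± 0.40 in Tet2dRBD (SD, n = 4). By edgeR the fitted log2 ratio was 1.00 in Tet1 (standard error 0.28, adjusted p = 0.059), 0.65 in Tet2 (0.19, adjusted p = 0.026) and 0.90 in Tet2dRBD (0.20, adjusted p = 0.011). The call in Tet2 was lost without Tet2 replicate 3 (adjusted p = 0.080 by edgeR), without Tet2 replicate 4 (0.094) and with replicates 3 and 4 merged (0.079). The call in Tet2dRBD was kept in each fit that left out a replicate. With no replicate block, neither call held (0.34 and 0.42). In Tet1 the ratio passed the threshold in 6 of 16 alternative settings. DESeq2 was among these (adjusted p = 0.014). So was edgeR without Tet2 replicate 2 (0.044), Tet2dRBD replicate 2 (0.015) or Tet2dRBD replicate 4 (0.032). These edgeR fits left out libraries of the other lines, not of Tet1. By edgeR it did not pass with no replicate block (0.87) or with replicates 3 and 4 merged (0.076). Without Tet1 replicate 1 or 2 the ratio was 1.04 or 0.96, in fits that left a lone Tet1 pair.

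Mbd3, the abundant counterpart of Mbd2 and the subunit that the study names among its 5hmC transcripts, showed a smaller ratio. Its gene lies on chromosome 10 of mm9 from 79855284 to 79862295 (minus strand). In Tet1 its TPM was 232 and 242 in input and 266 and 303 in IP. In Tet2 it was 156, 220, 185 and 191 in input of replicates 1 to 4 and 235, 417, 234 and 226 in IP. In Tet2dRBD it was 170, 258, 188 and 190 in input and 244, 337, 287 and 297 in IP. Every IP of Tet1 and Tet2 lay above every input of the same line, and in Tet2dRBD the replicate 1 IP lay below the replicate 2 input.

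The mean log2(IP/input) of Mbd3 was 0.26 ± 0.09 in Tet1 (SD, n = 2), 0.52 ± 0.30 in Tet2 (SD, n = 4) and 0.54 ± 0.12 in Tet2dRBD (SD, n = 4), and it exceeded the median gene in all 10 replicates. By edgeR the fitted log2 ratio was 0.11 in Tet1 (standard error 0.13, adjusted p = 0.67), 0.21 in Tet2 (0.10, adjusted p = 0.12) and 0.26 in Tet2dRBD (0.10, adjusted p = 0.074). None of these passed the threshold. The Tet2dRBD ratio passed with DESeq2 (0.32, adjusted p = 0.020, with 12.8% of genes higher) and, by edgeR, without Tet2 replicate 2 (0.27, adjusted p = 0.037). The ratio of Mbd2 exceeded that of Mbd3 in 8 of the 10 replicates, by a median of 0.64. This contrast was chosen after the values had been seen and was not tested.

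Of the deacetylases, Hdac2 had the higher ratio in every replicate. It lies on chromosome 10 from 36694350 to 36721695 (plus strand) and had a TPM of 56.9 and 43.7 in Tet1 input and of 110 and 94.4 in Tet1 IP. In Tet2 it was 63.8, 28.3, 40.6 and 43.4 in input of replicates 1 to 4 and 96.4, 146, 76.6 and 74.5 in IP. In Tet2dRBD it was 69.4, 13.5, 45.2 and 68.9 in input and 130, 49.7, 92.7 and 83.2 in IP. The lowest input of both Tet2 lines was that of replicate 2, which also gave the highest ratios, 2.33 in Tet2 and 1.81 in Tet2dRBD. IP and input did not overlap in Tet1 and Tet2 but overlapped in Tet2dRBD.

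By edgeR the fitted log2 ratio of Hdac2 was 0.88 in Tet1 (standard error 0.40, adjusted p = 0.21), 0.84 in Tet2 (0.29, adjusted p = 0.046) and 0.74 in Tet2dRBD (0.29, adjusted p = 0.096). The Tet2 call rested on few libraries. It was kept in 8 of 16 alternative settings, among them DESeq2 (adjusted p = 0.010) and limma on log2(TPM + 1) (0.0081). Without Tet2 replicate 2 the ratio fell to 0.51 (adjusted p = 0.16), and the call was also lost without Tet2 replicate 3 (0.079) or 4 (0.080), without Tet1 replicate 1 (0.056) or 2 (0.066), and without Tet2dRBD replicate 3 (0.054). With no replicate block the ratio was 0.78 (adjusted p = 0.30). The Tet2dRBD ratio passed in 5 of 16 alternative settings. These included DESeq2 (adjusted p = 0.027), limma on log2(TPM + 1) (0.024) and edgeR without Tet2 replicate 2 (0.033). Without replicate 2 of both Tet2 lines, a setting chosen after seeing the data, the ratio was 0.88 in Tet1 (adjusted p = 0.0091), 0.51 in Tet2 (0.018) and 0.42 in Tet2dRBD (0.042). These values were past the threshold in all lines, with smaller Tet2 and Tet2dRBD ratios. In that setting 2855 genes passed in Tet1, 5217 in Tet2 and 4201 in Tet2dRBD, of 13639 tested. The main fit called 809, 4540 and 2674 of 13710.

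Hdac1, on chromosome 4 from 129193348 to 129219957 (minus strand), had ratios closer to 0. Its TPM was 160 and 149 in Tet1 input and 157 and 146 in Tet1 IP. In Tet2 it was 98.2, 197, 114 and 118 in input and 106, 305, 120 and 121 in IP. In Tet2dRBD it was 117, 174, 139 and 132 in input and 111, 196, 154 and 143 in IP. Input and IP overlapped in every line, and 2 of the 10 replicates exceeded the median gene. The fitted log2 ratios were -0.18 in Tet1 (95% interval -0.52 to 0.16), -0.11 in Tet2 (-0.35 to 0.14) and -0.18 in Tet2dRBD (-0.43 to 0.06). The ratio of Hdac2 exceeded that of Hdac1 in all 10 replicates, by 0.15 to 1.70 (median 0.92), a contrast chosen after the values had been seen and not tested. The part that the windows shared with Gm10093 have in the ratio of Hdac1, and in its contrast with Hdac2, was not tested.

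**Figure D3:**
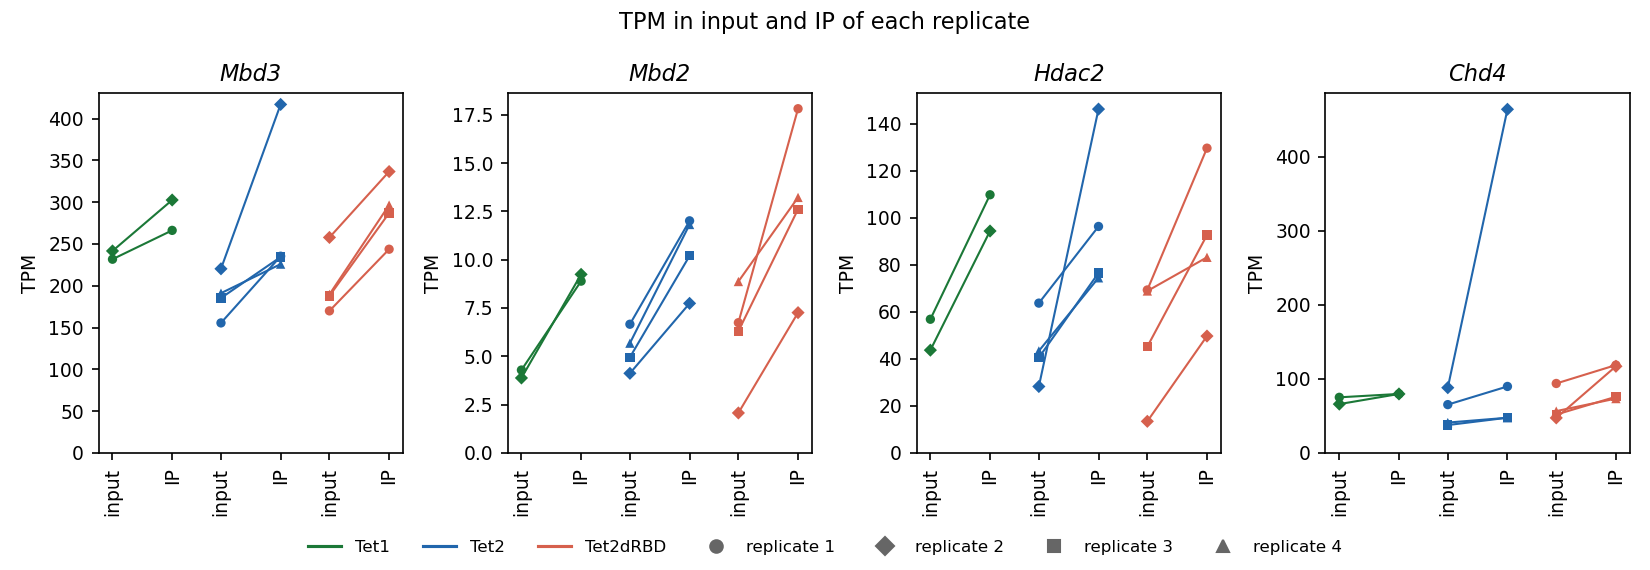
TPM in input and in IP, joined for each replicate, of Mbd3, Mbd2, Hdac2 and Chd4, with lines coloured by cell line and points shaped by replicate number (each TPM axis starts at 0). All lines rise from input to IP, and the Chd4 IP of Tet2 replicate 2, at 464 TPM, stands apart from all other Chd4 values, which lie between 37.6 and 119 TPM.

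Chd4, the remodelling ATPase, lies on chromosome 6 from 125045999 to 125080609 (plus strand). In Tet1 its TPM was 75.1 and 65.9 in input and 79.7 and 79.6 in IP. In Tet2 it was 65.3, 88.1, 37.6 and 41.0 in input of replicates 1 to 4 and 89.8, 464, 47.6 and 47.5 in IP. In Tet2dRBD it was 93.8, 47.3, 51.9 and 56.5 in input and 119, 117, 75.9 and 73.4 in IP. A single library, Tet2 IP replicate 2, was far above the rest. IP and input overlapped in Tet2 and in Tet2dRBD and did not overlap in Tet1.

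The log2(IP/input) of Chd4 was positive in all 10 replicates, with a median of 0.35, but reached 2.38 in Tet2 replicate 2 and 1.29 in Tet2dRBD replicate 2. By edgeR the fitted log2 ratio was 0.51 in Tet2 (standard error 0.30, adjusted p = 0.22) and fell to 0.08 without Tet2 replicate 2 (adjusted p = 0.79). In Tet2dRBD it was 0.36 (0.30, adjusted p = 0.41), and 0.12 without Tet2dRBD replicate 2 (adjusted p = 0.82). In Tet1 it was 0.03 (0.42, adjusted p = 0.98). The related remodellers Chd3 and Chd5, which can take the place of Chd4, were scarce in input, at medians of 2.99 and 1.15 TPM, and also had their highest ratio in Tet2 replicate 2 (1.94 and 2.31).

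The scaffolds differed little between IP and input. Mta2, on chromosome 19 from 9016365 to 9026793 (plus strand), was above input in all 10 replicates (0.02 to 0.51), Mta3 in 9 and Mta1 in 8. Relative to the median gene, these numbers were 8, 7 and 4. Their fitted log2 ratios lay between -0.17 and 0.07 in the 3 lines, with no adjusted p under 0.05. The ratios of Mta1 and Mta2 in Tet2 IP, 0.22 ± 0.19 and 0.35 ± 0.11 (SD, n = 4), became -0.01 and 0.12 when centred on the median gene. In input, Mta3 of Tet2dRBD replicate 1, at 156 TPM, lay above the other Tet2dRBD inputs (68.7 to 78.6).

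Gatad2a and Gatad2b, the bridging subunits, also did not pass the test in any line. Gatad2a was above input in 9 of the 10 replicates, from -0.08 to 0.77, and its fitted log2 ratio was -0.06 in Tet1, 0.12 in Tet2 and 0.05 in Tet2dRBD. Gatad2b had a TPM of 5.15 and 5.70 in Tet1 input and of 3.44 and 4.48 in Tet1 IP, the lowest ratio of the 10 subunits in both Tet1 replicates. Its fitted log2 ratio in Tet1 was -0.61 (standard error 0.21, adjusted p = 0.11), against 0.08 in Tet2 and -0.12 in Tet2dRBD. Counts of Gatad2b ranged from 85 to 444 per library. Without replicate 2 of both Tet2 lines, the Tet1 ratio of Gatad2b passed the threshold as lower (adjusted p = 0.049 by edgeR). In that setting 1657 of 13639 genes passed as lower in Tet1.

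**Figure D4:**
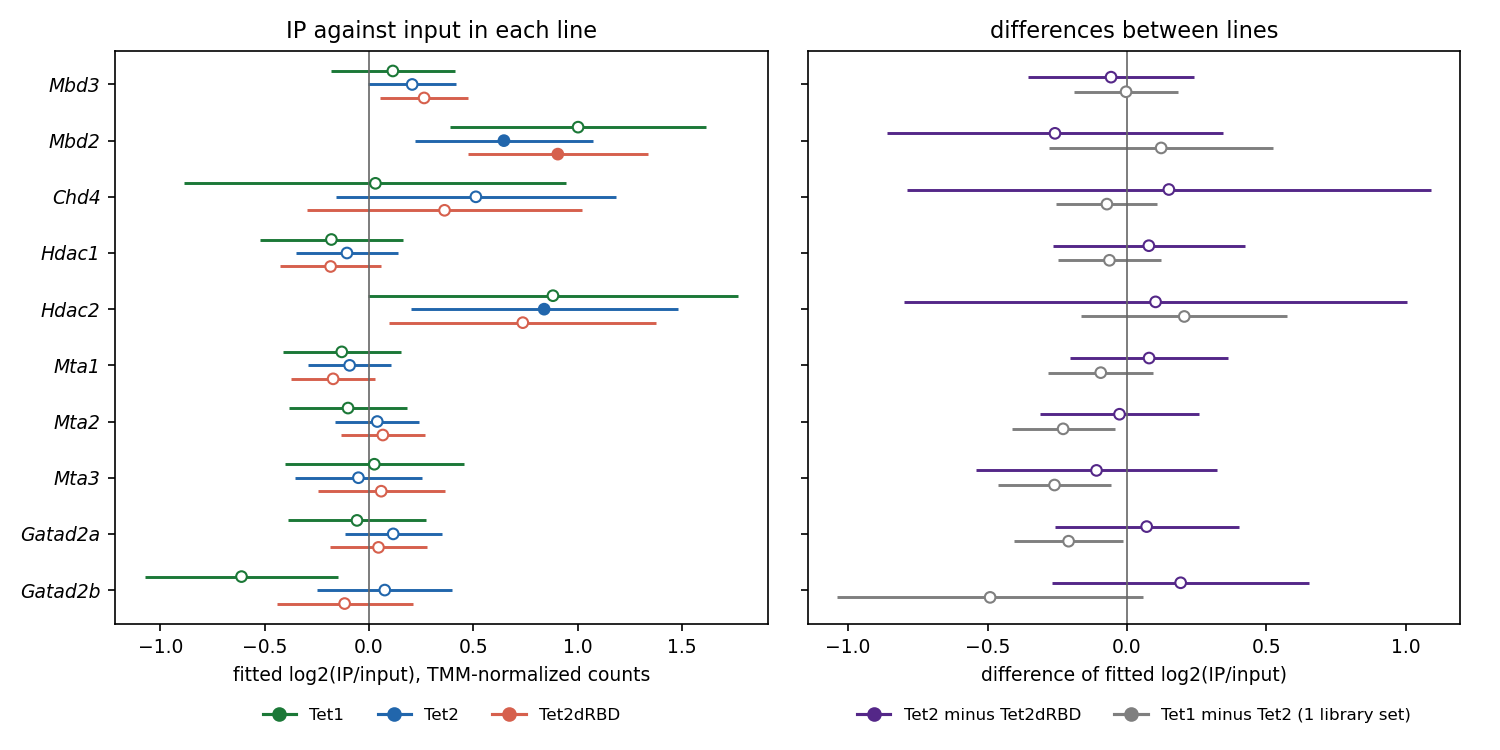
Fitted log2 ratios with 95% intervals from edgeR for the 10 subunits. The left panel gives IP against input in each line, with filled points for an adjusted p under 0.05 (Mbd2 in Tet2 and Tet2dRBD, Hdac2 in Tet2), and the right panel gives the differences between lines, all open.

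Whether the recovery of these transcripts depends on the RNA-binding domain of Tet2 was addressed by subtracting the fitted log2(IP/input) in Tet2dRBD from that in Tet2. By edgeR 0.0219% of 13710 genes passed, and none of the 10 subunits did (DESeq2 called none of them either, and none had an unadjusted p under 0.05). The fitted difference of Mbd3 was -0.06 (95% interval -0.35 to 0.24), and that of Mbd2 was -0.26 (-0.86 to 0.34). Those of Hdac2 and Chd4 were 0.10 (-0.80 to 1.00) and 0.15 (-0.79 to 1.09). The narrowest intervals were those of Mta1, at 0.08 (-0.20 to 0.36), and Mta2, at -0.03 (-0.31 to 0.26). Without Tet2 replicate 2 the sign turned for Hdac2 (-0.24) and Chd4 (-0.29), and these values did not pass the threshold either.

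Tet1 was compared with Tet2 within the library set that they share, over 12 libraries and 3 residual degrees of freedom. In this comparison 2.35% of 13379 genes passed in either direction, and none of the 10 subunits did, although Mta2, Mta3 and Gatad2a had an unadjusted p under 0.05. Their fitted differences were -0.23 (standard error 0.08, adjusted p = 0.15), -0.26 (0.09, adjusted p = 0.14) and -0.21 (0.09, adjusted p = 0.20), lower in Tet1 in each case. The difference of Hdac2 was 0.21 (0.17, adjusted p = 0.51). It was 0.27 without Tet2dRBD replicate 3 and 0.27 without Tet2dRBD replicate 4. Each of these fits left a lone pair of that line, so their p-values are not given here. The differences of Mbd3, at -0.0033 (95% interval -0.19 to 0.18), and Chd4, at -0.07 (-0.25 to 0.11), had narrower intervals here than over all libraries. These intervals measure the spread within that library set, in which replicates of the same group correlated at 0.991 to 0.996. Whether those replicates were separate cultures is not given, so the narrower intervals are not a firmer bound on the difference between lines.

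Further components of the complex were described from a list of 5 genes. Rbbp4 and Rbbp7 encode histone-binding WD40 chaperones, and Cdk2ap1 encodes a small accessory subunit. Of the 5, none passed in Tet1, Rbbp4 and Cdk2ap1 passed as lower in Tet2 and Rbbp4 passed as lower in Tet2dRBD, which are named here after their values had been seen. The fitted log2 ratio of Rbbp4 was -0.65 in Tet2 (standard error 0.14, adjusted p = 0.0058) and -0.52 in Tet2dRBD (0.14, adjusted p = 0.026), and that of Cdk2ap1 was -0.46 in Tet2 (0.12, adjusted p = 0.015). Rbbp7 was above input in all 10 replicates, from 0.29 to 0.61, but its fitted ratio of 0.17 in Tet1, 0.16 in Tet2 and 0.15 in Tet2dRBD did not pass the test. Rbbp4 lay below input in 8 of the 10 replicates. Its call was kept when a replicate was left out in turn in 9 of 10 fits for Tet2 and 7 of 10 for Tet2dRBD, and that of Cdk2ap1 in 8 of 10. With limma on log2(TPM + 1), the ratio of Rbbp4 was -0.33 in Tet2 (adjusted p = 0.034) and -0.24 in Tet2dRBD (0.12), and that of Cdk2ap1 in Tet2 was -0.15 (0.25), so that only the first call held on that scale.

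The shares of all genes that passed were 14.6% higher and 18.5% lower in Tet2, and 7.4% higher and 12.1% lower in Tet2dRBD, and the counts of the following lists stand beside these. Of 9 partners of NuRD, 1 passed as higher (Kdm1a) and 1 as lower (Zmynd8) in Tet2, and 2 as lower (Sall1 and Zfp296) in Tet2dRBD. Zmynd8, a chromatin reader, had the largest fitted ratio past the threshold among the lists of related genes, -1.55 in Tet2 (standard error 0.37, adjusted p = 0.0096). Of 14 genes of other class I deacetylase complexes, 1 passed as higher (Sin3a) and 2 as lower (Hdac8 and Sap30) in Tet2, and the same 2 as lower in Tet2dRBD. Sin3a, the scaffold of the SIN3 complex, had a fitted log2 ratio of 0.77 in Tet2 (0.26, adjusted p = 0.041), and Hdac8, a class I deacetylase, had -0.53 in Tet2dRBD (0.13, adjusted p = 0.021). Of 6 genes listed as relatives of the methyl-CpG-binding subunits, 2 passed as lower in Tet2 (Mbd6 and Zbtb33). In Tet2dRBD 1 passed as higher (Mbd5, 1.16, standard error 0.35, adjusted p = 0.039). None of these lists had a gene past the threshold in Tet1 or in the difference between Tet2 and Tet2dRBD, and 1 of their genes, Mier1, passed as higher in Tet1 than in Tet2. Leaving out each replicate in turn, 10 fits for each gene, kept the Tet2 calls of Zmynd8, Hdac8, Sap30 and Zbtb33 in all 10, that of Kdm1a in 8, that of Sin3a in 6 and that of Mbd6 in 5. Of the Tet2dRBD calls it kept Zfp296 in 9, Hdac8 in 8, Sap30 in 7, Mbd5 in 5 and Sall1 in 2. With limma on log2(TPM + 1), the calls of Zmynd8, Sap30, Kdm1a and Sin3a in Tet2 and of Mbd5 in Tet2dRBD (0.48, adjusted p = 0.015) were kept, and those of Hdac8, Zbtb33 and Mbd6 in Tet2 and of Hdac8, Sap30, Sall1 and Zfp296 in Tet2dRBD were not.

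Of 4 RNAs retained in the nucleus, Neat1 passed as lower in Tet2 IP (-1.02, standard error 0.35, adjusted p = 0.044) and Meg3 as lower in Tet2dRBD IP (-0.61, 0.19, adjusted p = 0.042), calls kept in 5 and 3 of the 10 fits that left out a replicate and in neither case with limma (adjusted p = 0.13 and 0.31). The other fitted ratios of these RNAs did not pass, and Kcnq1ot1 had a positive one in each line (0.61 in Tet1, 0.50 in Tet2 and 0.41 in Tet2dRBD), as did Malat1 in Tet1 (0.32). In the comparison of Tet1 with Tet2, Malat1 (1.01, adjusted p = 0.047 by edgeR) and Neat1 (0.79, adjusted p = 0.011) passed as higher in Tet1. The transcripts of the Tet genes themselves were all above 0 in the fitted ratio except Tet3 in Tet1 (-0.13). Tet2 RNA passed as higher in Tet2 IP (0.56, standard error 0.19, adjusted p = 0.043), and Tet1 RNA passed as higher in Tet2dRBD IP (0.76, 0.20, adjusted p = 0.024). These calls were kept in 3 and 7 of the 10 fits without a replicate.

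Over the 10 replicates, the log2(IP/input) of Mbd3 was most like that of Slc25a23, Rad54l2 and Bahcc1 among 8467 genes averaging 5 TPM or more in input (Pearson's r of 0.98, 0.97 and 0.97). The replicates share library sets, and these correlations are given as a description. Among the subunits themselves, the ratios of Mta1 and Gatad2a moved most closely together over the 10 replicates (r = 0.96), followed by Chd4 and Hdac1 (0.94) and by Mta2 and Gatad2a (0.94). Mbd2 and Gatad2a were the most opposed (r = -0.66). The ratios were not centred on the median gene for these correlations. In Tet2 replicate 2 the ratio was 2.38 for Chd4 and 0.63 for Hdac1, against at most 0.45 and 0.11 in the other Tet2 replicates. Correlations without that replicate were not computed. Tet2 replicate 2, whose median over all genes was also the highest (0.38), was the highest replicate of Mbd3, Chd4, Hdac1, Hdac2, Mta1, Mta2, Gatad2a and Gatad2b but not of Mbd2 or Mta3.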

How the data were processed

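RIP-Seq was analysed in 20 libraries of mouse ESCs. The authors removed reads of rRNA and tRNA with Bowtie2, trimmed with Trimmomatic, and quantified genes with RSEM on the RefSeq transcriptome of mm9. They deposited expected counts per gene, not normalized, and TPM with 1 added, from which 1 was subtracted here. FPKM values were not used. Groups and replicate numbers came from the sample labels. The names of the deposited files carry a numbering that divides the libraries into sets, which the labels do not give. The labels do not say whether replicates were separate cultures, so p-values measure the spread between these samples. The members and lists were chosen with earlier results of these data known.

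Expected counts were rounded and fitted with edgeR 4.0.16 (R 4.3.3), keeping genes with at least 1 CPM in 2 libraries, with TMM normalization, a block for each IP and input and an IP effect per line over all 20 libraries (7 residual degrees of freedom). Standard errors were obtained from the log2 ratio and its F statistic, and intervals are 95%. Tet1 minus Tet2 was fitted in the 12 libraries of 1 set, and the inputs in 8 libraries without a block (6 degrees of freedom). The threshold was an adjusted p of 0.05. Same-numbered libraries deviated together from their group means: the correlation over genes was 0.614 to 0.862 for Tet2 IP and input, 0.578 to 0.849 for Tet2dRBD and 0.687 to 0.884 between the Tet2 and Tet2dRBD inputs. For the 2 Tet1 replicates it was 0.184, the same for both because their deviations mirror each other. The pairing comes from the label numbers.

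All 10 members were named in every comparison. From the 5 lists of related genes and nuclear RNAs, which leave out the cell type markers, the 3 genes per line with the largest fitted ratio past the threshold were named, with the Tet genes and the 3 genes most correlated with Mbd3. Other genes named from counts of up to 5 were chosen after their values were seen. Alternatives were DESeq2 1.42.0, limma 3.58.1 on log2(TPM + 1), fits without the block or the filter, replicates 3 and 4 merged, a pseudocount of 0.1, centring, and leaving out each replicate.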

Additional observations from a re-analysis of the deposited data

Results flagged for a closer look

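In groups of 4 replicates, 11 of 60 sets of values held a replicate farther from the others than Dixon's criterion allows. The criterion's rate of about 1 in 20 holds for replicates that are equally related. Here replicates 3 and 4 share a library set, so that rate cannot be applied. The share over all genes was not computed, and the values below are not independent of one another. In Tet2 replicate 2, IP TPM was 417 for Mbd3 (others 226 to 235), 464 for Chd4 (47.5 to 89.8), 305 for Hdac1 (106 to 121) and 209 for Gatad2a (84.8 to 88.8). In the same replicate, log2(IP/input) was 2.38 for Chd4 (others 0.21 to 0.45), 0.63 for Hdac1 (0.03 to 0.11) and 0.77 for Gatad2a (0.30 to 0.34), and input TPM was 122 for Gatad2a (68.6 to 72.0). In Tet2dRBD replicate 2, the input TPM of Gatad2a was 116 (others 71.6 to 75.2). In Tet2dRBD replicate 1, Mta3 had an input TPM of 156 (68.7 to 78.6) and an IP TPM of 166 (92.5 to 101). The replicate numbers coincide with library sets, and the part of the sets in these values was not tested.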

How the results depend on the processing

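No subunit passed in Tet2 minus Tet2dRBD or between the inputs under any setting run. Of 850 fitted member values under alternatives, 24 passed a threshold that they had missed, 13 lost it and 68 had the other sign, of which 10 were in limma and 52 in fits that omitted libraries. None of these 68 was past the threshold in either setting. Of 160 mean log2(IP/input) values, 8 had the other sign, 7 of them when centred on the median gene. Of those 7, the values of Mta2 in Tet1 (-0.032) and of Hdac1 (-0.021) and Mta1 (-0.010) in Tet2 had been positive in every replicate. Besides those 3, 9 mean values moved by at least 1 SD. The cause was not tested.

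The main counts of subunits called were 0 in Tet1, 2 in Tet2 and 1 in Tet2dRBD, and those of all genes called were 809, 4540 and 2674. DESeq2 called 1 subunit in Tet1 and 3 in Tet2dRBD, with 1578 genes in Tet1, 28 in Tet2 minus Tet2dRBD (3 by edgeR) and 9 between inputs (0 by edgeR). With limma on log2(TPM + 1), 1, 6 and 4 subunits were called in Tet1, Tet2 and Tet2dRBD, with 636, 5914 and 3853 genes. With no replicate block, no subunit was called in any line, and the gene counts were 0 in Tet1, 375 in Tet2, 46 in Tet2dRBD, 0 in Tet2 minus Tet2dRBD and 169 in Tet1 minus Tet2 (314 with it). The replicate block between inputs gave 5 genes. With replicates 3 and 4 merged, 0 subunits were called in Tet2, with 316 genes in Tet1, 1060 in Tet2dRBD and 0 in Tet2 minus Tet2dRBD. With no filter on low counts, 6 genes were called in Tet2 minus Tet2dRBD. Tet1 minus Tet2 over all 20 libraries called 0 genes. Without replicate 2 of both Tet2 lines (chosen after seeing the data), 3 subunits were called in Tet1 and 3 in Tet2dRBD, with 2855, 4201 and 17 genes in Tet1, Tet2dRBD and Tet2 minus Tet2dRBD. The number of subunits above input in every replicate, 7 in Tet1, 8 in Tet2 and 6 in Tet2dRBD, fell to 2, 2 and 0 when 1.5 times input was required, which 8.55%, 6.49% and 1.37% of genes met. With no replicate block, by the means of IP and input, it was 10 in Tet2dRBD.

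Leaving out each replicate in turn gave 0 to 1 subunits and 0 to 1505 genes in Tet1, 0 to 2 and 2690 to 5376 in Tet2, and 1 to 3 and 795 to 3419 in Tet2dRBD. It gave 0 to 14 genes in Tet2 minus Tet2dRBD, 0 to 1 subunits and 1 to 2248 genes in Tet1 minus Tet2, and 0 genes between inputs. The number of subunits above input in all remaining replicates was 7 to 8, 8 to 9 and 6 to 8 in Tet1, Tet2 and Tet2dRBD. Counts of Mbd2 and Gatad2b, the scarcest subunits, limit the precision of their ratios.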
